A study of Mus musculus with 4 samples.

Results

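The genes described here are 36 germ cell, meiosis and piRNA pathway genes, taken by symbol from a fixed list of names. All 36 are among the 23366 gene symbols in the read count files. They were compared between mouse R1 embryonic stem cells of 129X1 x 129S1 origin that received a short hairpin RNA (shRNA) against Cyrano, a long noncoding RNA, and the same line with a non-targeting hairpin. There were 2 control and 2 knockdown libraries of poly(A) RNA, and the submitters call them biological replicates. All 4 cultures were kept with serum, serum replacement and LIF, a cytokine that sustains self-renewal, on gelatin without a feeder layer in the labels. The pSicoR vector, which carries mCherry and puromycin markers, was introduced with a lipid reagent, so only transfected cells carry the hairpin, and they were enriched with puromycin or by flow cytometry when passaged the day after. Which of these served a given library, and the time of harvest, are not given in the labels.

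Germ cells carry genes for meiosis, the division that makes haploid cells, and for the piRNA pathway, in which PIWI proteins guided by small RNAs silence transposons. In the embryo many of these genes are shut by promoter methylation laid down around implantation and are opened again when primordial germ cells erase it. Embryonic stem cells sit close to that point, and the repressor complex PRC1.6, with the E-box binding pair MGA and MAX and the E2F-family protein E2F6, is known to hold many germline promoters quiet in them. Transcripts of several of them, Dazl and Tex19.1 among these, are known in such cells without germ cells being present.

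Library totals over genes ran from 16854403 to 22321102 reads. Levels are given as CPM, the usual scaling of counts to a common library size, with sizes adjusted by the trimmed mean of M values (TMM). Cyrano, listed as 1700020I14Rik, had 24.8 and 15.1 CPM in the controls and 3.99 and 3.16 CPM after knockdown, a log2 fold change of -2.48 ± 0.30 (SE; edgeR adjusted p = 0.00702). It was lower in both knockdown libraries than in either control, and it missed the threshold without control 1 (-2.08, edgeR adjusted p = 0.12) or control 2 (-2.79, edgeR adjusted p = 0.0567). The 45S ribosomal RNA precursor Rn45s held from 15.9% to 17.5% of control counts and from 11.03% to 12.3% of knockdown counts. All 10 pluripotency markers examined passed the filter on low counts and summed to between 4870 and 5500 CPM in a library. Of 8 fibroblast markers, Col3a1, Lum, Dcn and Postn were at 0 in every library, and of 7 testis somatic markers in the files Cyp17a1 and Hsd3b1 were. The 3 fibroblast markers that could be tested were Col1a1 (-0.94 ± 0.55), Thy1 (0.20 ± 0.44) and Fbln1 (0.11 ± 0.18), and the list summed to 81.8 and 76.9 CPM in the controls and 101 and 71.5 CPM after knockdown.

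Promoter sequence is shown first, because PRC1.6, named above, holds E-box binding and E2F-family proteins. RefSeq start sites of build GRCm38.p6, a later build than the mm9 of the files, were matched by symbol for 32 of the 36 members, with 41 promoters of 300 bases (250 before and 50 after the start). Piwil2, Tex11, Tex15 and Spo11 had no entry. The E-box CACGTG, which reads the same on both strands, was present in 17 of the 41 promoters (41.5%), against 7.2% of all 32851 RefSeq promoters. It lay in a promoter of 14 members: Brdt, Ddx4, Hormad1, Mael, Mov10l1, Slc25a31, Stag3, Stk31, Syce2, Sycp1, Sycp3, Taf7l, Tdrd1 and Tdrd9. Some genes have several start sites with overlapping windows, as Hormad1 and Stk31 do, so that promoters are not independent. The E2F motif TTCCCGCC, searched on both strands (GGCGGGAA on the other), was in 6 of the 41 (14.63%), against 2.19% of all promoters, and does not overlap the E-box motif. These 6 promoters belong to 5 members.

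The following 50-base stretches show the E-box, in capitals, in 6 members from the main functional groups. They run 5′ to 3′ along the gene's strand and end before the start site. Sycp3 holds a pair of E-boxes in its stretch.
Sycp1 (chr3:102936167-102936216, minus strand): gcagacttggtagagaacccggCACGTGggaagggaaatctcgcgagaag
Sycp3 (chr10:88459501-88459550, plus strand): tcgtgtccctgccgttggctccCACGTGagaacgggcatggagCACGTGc
Stk31 (chr6:49395462-49395511, plus strand): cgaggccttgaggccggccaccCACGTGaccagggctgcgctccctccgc
Brdt (chr5:107331094-107331143, plus strand): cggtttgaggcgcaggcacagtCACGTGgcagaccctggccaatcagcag
Stag3 (chr5:138280317-138280366, plus strand): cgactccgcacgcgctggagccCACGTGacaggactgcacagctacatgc
Mael (chr1:166238940-166238989, minus strand): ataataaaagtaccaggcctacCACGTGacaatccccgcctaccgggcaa

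The whole 250 bases before the start are shown for 3 more members. Taf7l, which had the lowest p of all members, has an E-box; Ddx4, the classic germ cell marker, has an E-box and an E2F motif, in that order counted back from the start; Syce1, with the third lowest p, has neither.
Taf7l (chrX:134476491-134476740, minus strand): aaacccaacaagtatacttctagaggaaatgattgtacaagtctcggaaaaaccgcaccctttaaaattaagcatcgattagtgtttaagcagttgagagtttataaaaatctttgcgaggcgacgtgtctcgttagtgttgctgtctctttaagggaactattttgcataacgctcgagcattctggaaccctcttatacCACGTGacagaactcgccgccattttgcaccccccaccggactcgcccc
Ddx4 (chr13:112652311-112652560, minus strand): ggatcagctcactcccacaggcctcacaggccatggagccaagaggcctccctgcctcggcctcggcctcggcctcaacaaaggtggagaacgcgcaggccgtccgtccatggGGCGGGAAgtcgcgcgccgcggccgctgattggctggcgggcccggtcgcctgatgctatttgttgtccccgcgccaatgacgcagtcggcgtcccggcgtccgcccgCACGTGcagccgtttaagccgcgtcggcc
Syce1 (chr7:140787855-140788104, minus strand): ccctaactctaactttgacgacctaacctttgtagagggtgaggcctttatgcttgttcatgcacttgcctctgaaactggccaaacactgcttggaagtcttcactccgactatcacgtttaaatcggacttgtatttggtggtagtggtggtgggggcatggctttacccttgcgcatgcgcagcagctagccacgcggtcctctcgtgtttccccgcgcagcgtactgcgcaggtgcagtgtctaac

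The member promoters were also rich in CpG, the dinucleotide that DNA methyltransferases act on. Their median ratio of observed to expected CpG was 0.713, against 0.384 in all promoters, and 27 of 41 (65.9%) reached 0.6, against 35.8%. Among promoters at or above that ratio, the E-box was in 16 of 27 from the members (59.3%) and in 11.3% of all. The E2F motif was in 5 of these 27 (18.52%) and in 4.78% of all promoters at or above it. The 250 bases before the Ddx4 start hold 31 CpG, those of Taf7l 14 and those of Syce1 13. A motif match is a description of the letters, and binding was not measured.

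**Figure D1:**
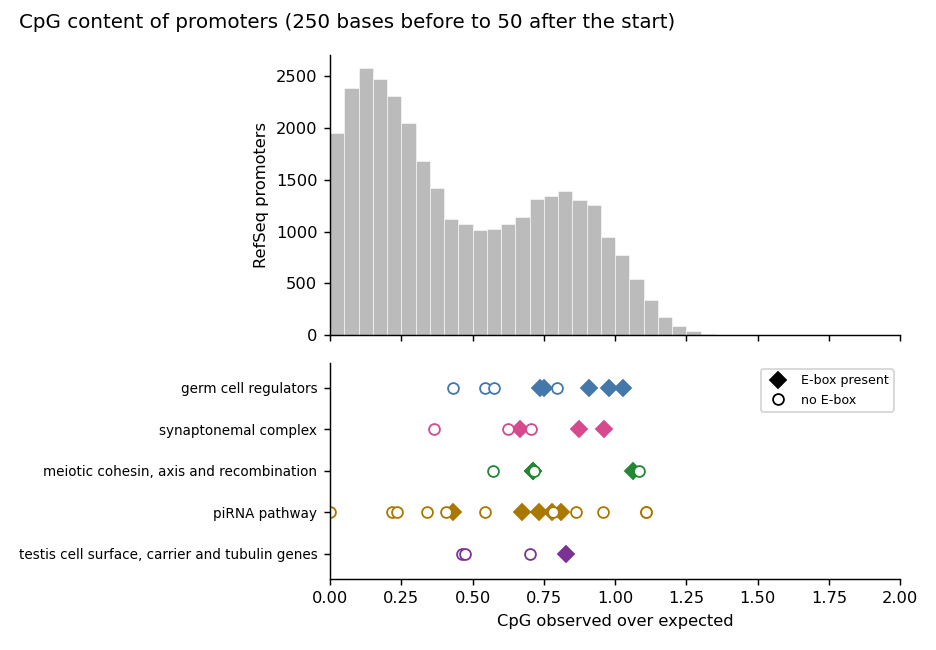
CpG observed over expected (horizontal axis) in 300-base promoters: above, the number of all RefSeq promoters in each bin; below, the member promoters by functional group, with filled diamonds for those with an E-box. All promoters form a CpG-poor and a CpG-rich peak, and most member promoters, 27 of 41, lie at 0.6 or more.

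The level of these genes ranged widely in both groups. Of the 36, 34 passed the filter on low counts. To compare genes, levels were divided by the length of the longest GENCODE transcript, giving CPM per kilobase (RPKM). On this scale 12 of the 34 lay above the median of all 13199 genes tested and 22 below it. Tex19.1 (mean 55.5 RPKM over the 4 libraries), Tuba3a (44.7 RPKM) and Dazl (41.3 RPKM) stood highest, at the 91.2, 88.8 and 87.8 percentiles. They were followed by Syce2 (24.6 RPKM), Sohlh2 (20.6 RPKM), Syce1 (14.6 RPKM), Taf7l (10.8 RPKM) and Piwil2 (10.1 RPKM). At the other end 10 members had a mean under 1 RPKM, the lowest being Tdrd9 (0.135 RPKM), Tex15 (0.142 RPKM) and Brdt (0.177 RPKM). Members with an E-box promoter had a median of 2.68 RPKM and those with promoters lacking one a median of 1.61 RPKM, with wide ranges in each.

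The 2 members that did not pass the filter were at the limit of detection. Sycp2, a lateral element protein of the synaptonemal complex, had 1 and 2 reads in the controls and 7 and 13 reads after knockdown. Spo11, the nuclease that starts meiotic recombination by cutting DNA, had 0 reads in each of the 4 libraries, where 3 reads would amount to between 0.134 and 0.183 CPM (counting error only). Expression of Spo11 below that level was not detectable at this depth.

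**Figure D2:**
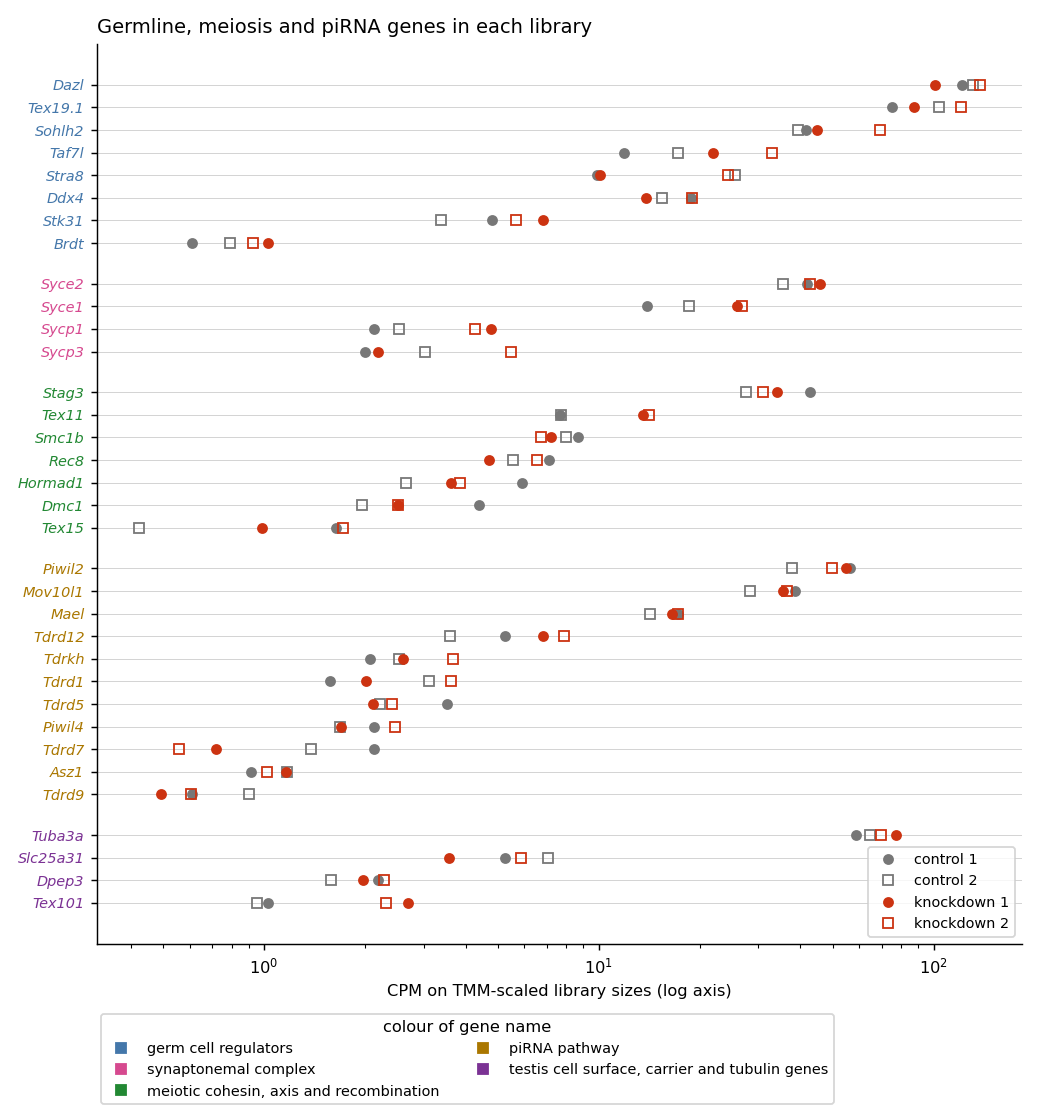
Level of the 34 members that passed the filter in each library, in CPM on a logarithmic axis, grouped by function; grey symbols are controls, red symbols knockdown, circles replicate 1 and squares replicate 2. Dazl and Tex19.1 are near 100 CPM, Tex11 shows a gap between the groups, and Stra8 splits by replicate instead of by group.

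No member was called after Cyrano knockdown. At an adjusted p under 0.05 edgeR called 0 of 34 in either direction, where it called 0.0379% of all genes tested higher and 0.0455% lower. DESeq2, which called 0.418% of its genes higher and 0.365% lower, had adjusted p-values for 19 members, with 0 past the threshold. Limma-voom, at 0.00758% and 0.0152% of all genes, called none either. At an unadjusted p under 0.05 by edgeR there were 7 members on the higher side (20.6% of 34, against 6.18% of all genes) and 1 on the lower side (2.94%, against 5.43%). At an unadjusted p under 0.05 in either direction, DESeq2 had 5 of the 34 members, beside 9.63% of all 13199 genes. Tdrd7, Tdrd12 and Sycp1, which passed by edgeR, did not pass by DESeq2 (unadjusted p = 0.0727, 0.0689 and 0.0542). Limma-voom had 8 of the 34, beside 11.7% of all genes. With library size alone as the scale, 1122 of all genes were on the higher side and 554 on the lower at this p, beside 816 and 717 with TMM, and the count of members was 7 and 1 with either.

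In 12 of the 34 members (35.3%) both knockdown libraries lay above both controls, where this held for 22.3% of all genes. In 3 members (8.82%), Tdrd7, Smc1b and Tdrd9, both lay below both controls, against 21.3% of all genes. The fold change was above 0 in 22 of 34 members (64.7%, against 49.8% of all genes), and its median was 0.16 on the log2 scale, against -0.002 over all genes. That median was 0.30 without control 1, 0.08 without control 2, 0.26 without knockdown 1 and 0.02 without knockdown 2, so single libraries move it by more than 1.5 times. In bulk RNA, more cells with such a transcript and more of it per cell cannot be told apart.

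**Figure D3:**
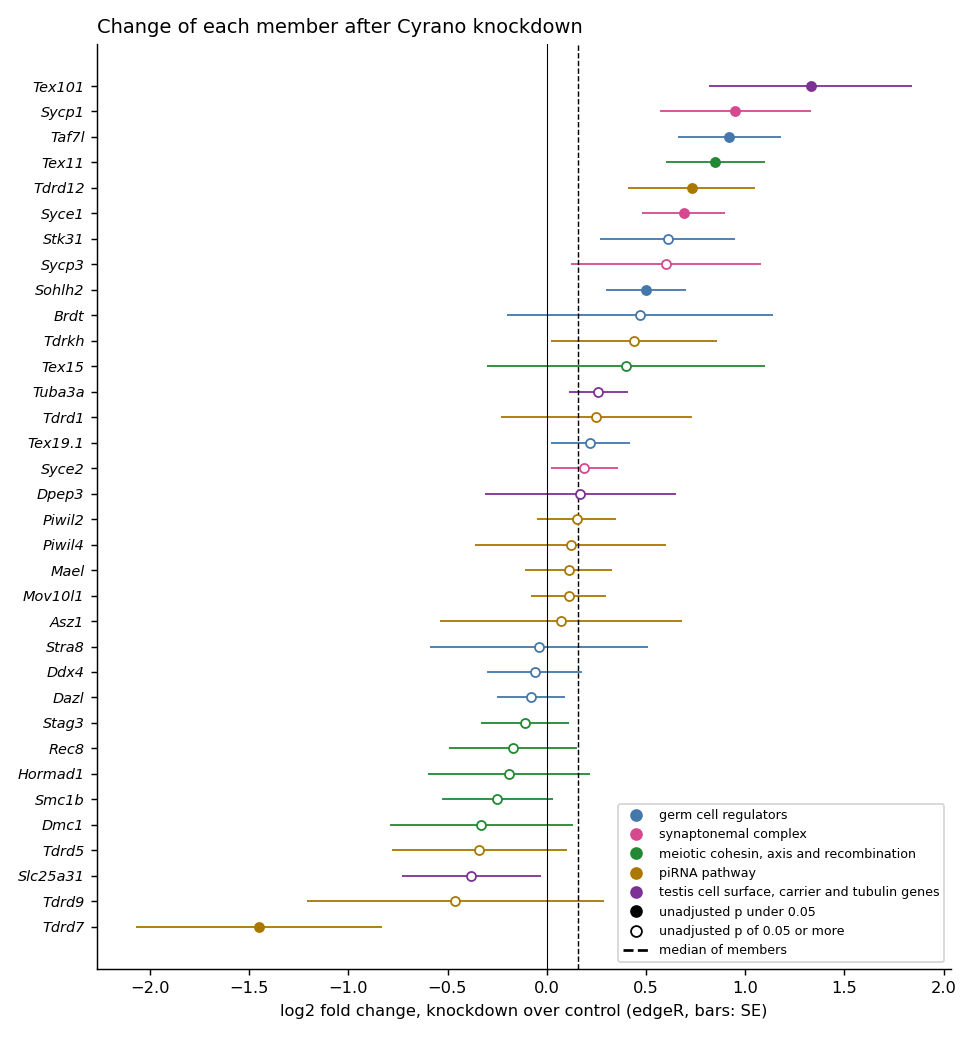
Log2 fold change of each tested member, knockdown over control, with its SE (edgeR); filled points have an unadjusted p under 0.05 and the dashed line is the members' median of 0.16. The points run from Tdrd7 at -1.45 to Tex101 at 1.33, with 7 filled points on the higher side and 1 on the lower.

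Among the germ cell regulators, the transcription factor genes Taf7l and Sohlh2 were on the higher side. Taf7l encodes the germ cell paralog of the general transcription factor subunit TAF7 and is X-linked. It had 11.9 and 17.2 CPM in the controls and 21.9 and 33.0 CPM after knockdown, so the groups did not overlap and replicate 2 was the higher library in each. Its log2 fold change was 0.92 ± 0.26 (SE; unadjusted p = 0.00354, edgeR adjusted p = 0.195). Taf7l was called by edgeR when no filter on low counts was used (adjusted p = 0.00734, 1.02% of all genes called higher) and without knockdown 1 (log2 fold change 1.18, adjusted p = 0.0108, 0.44% of all genes). Its fold change was 0.67 without control 1 (edgeR adjusted p = 0.582), 1.21 without control 2 (0.192) and 0.59 without knockdown 2 (0.724).

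Sohlh2, a basic helix-loop-helix factor of early spermatogonia and oocytes, had 41.6 and 39.3 CPM in the controls and 45.0 and 69.3 CPM after knockdown. Knockdown 1 was close to the controls and knockdown 2 stood apart, and the log2 fold change was 0.50 ± 0.20 (unadjusted p = 0.0297, edgeR adjusted p = 0.364). It was 0.16 without knockdown 2 and 0.77 without knockdown 1. Stk31, a kinase-domain protein with a Tudor domain, had 4.81 and 3.39 CPM in the controls and 6.81 and 5.67 CPM after knockdown, with a log2 fold change of 0.61 ± 0.34 (unadjusted p = 0.0931). Brdt, a testis bromodomain protein that reads acetylated histones, was low, at 0.608 and 0.794 CPM in the controls and 1.03 and 0.929 CPM after knockdown.

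The best known germ cell genes of the list had groups that overlapped. Dazl, a translational regulator needed for germ cell commitment, had 122 and 131 CPM in the controls and 101 and 138 CPM after knockdown, and the knockdown libraries lay on either side of the controls (log2 fold change -0.08 ± 0.17). Corrected for transcript length and GC it was -0.34 (edgeR adjusted p = 0.433). Ddx4, the mouse VASA helicase, had 18.9 and 15.4 CPM in the controls and 13.8 and 19.0 CPM after knockdown (log2 fold change -0.06 ± 0.24). Tex19.1, a protein that restrains transposons in germ cells and in stem cells, had 75.2 and 104 CPM in the controls and 87.5 and 121 CPM after knockdown (log2 fold change 0.22 ± 0.20). A p above the threshold does not show that the groups were alike in these 3 genes. Differences well beyond the SE could also be missed. The pluripotency marker Nanog, for example, was not called in the same test (-0.76 ± 0.14, edgeR adjusted p = 0.0696).

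Stra8, the retinoic acid-induced gene that licenses entry into meiosis, varied more between replicates than between groups. It had 9.86 and 25.5 CPM in the controls and 10.1 and 24.4 CPM after knockdown. Replicate 2 stood above replicate 1 by 1.37 on the log2 scale in the controls and by 1.27 after knockdown, while the log2 fold change between the groups was -0.04 ± 0.55. It was the 1 member whose replicates differed by more than 2-fold in the same direction in both groups. Tdrd1 (0.98 and 0.85) and Sycp3 (0.59 and 1.32) leaned the same way. Over the 34 members, replicate 2 was above replicate 1 in both groups in 11 and below it in both in 7, beside 30.4% and 28.4% of all genes.

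**Figure D4:**
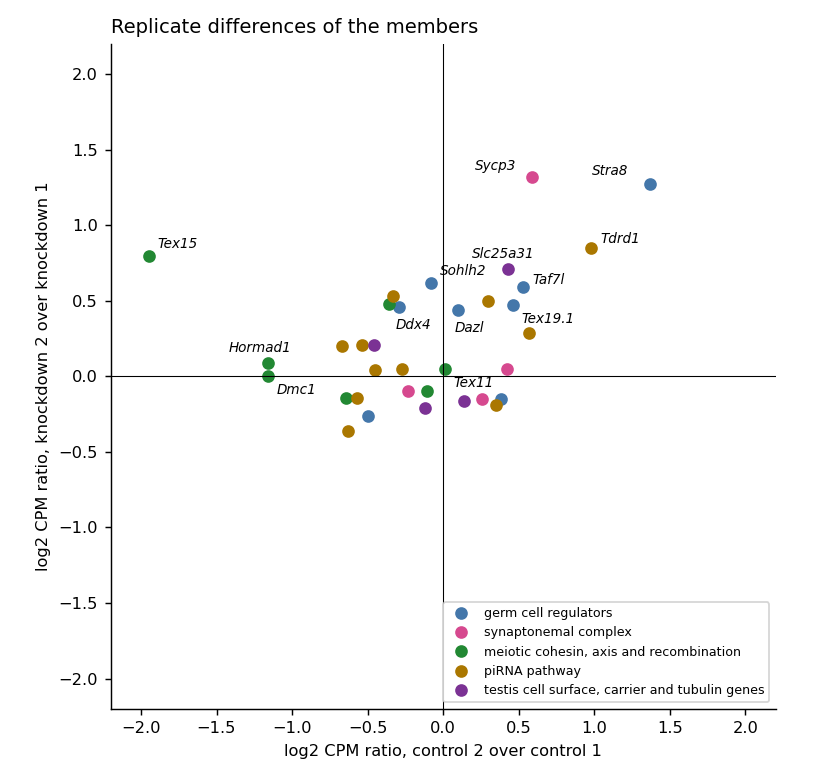
Log2 ratio of replicate 2 to replicate 1 in the controls (horizontal) and in the knockdown libraries (vertical) for the 34 tested members, coloured by functional group. Stra8 lies far out at the upper right, at 1.37 and 1.27, and Tex11 sits near the origin.

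The synaptonemal complex, the protein zipper that joins paired chromosomes in meiosis, had all 4 tested members above 0, beside 49.8% of all genes. Their median log2 fold change was 0.64. Both knockdown libraries lay above both controls in 3 of the 4 (75.0%), beside 22.3% of all genes. Syce1, a central element protein, had 13.9 and 18.6 CPM in the controls and 25.8 and 26.7 CPM after knockdown. Both knockdown libraries agreed closely and lay above the controls, with a log2 fold change of 0.69 ± 0.21 (unadjusted p = 0.00717, edgeR adjusted p = 0.236). Sycp1, the transverse filament protein that forms the teeth of the zipper, had 2.13 and 2.54 CPM in the controls and 4.75 and 4.27 CPM after knockdown (log2 fold change 0.95 ± 0.38, unadjusted p = 0.0261, edgeR adjusted p = 0.356). Corrected for transcript length and GC, the Sycp1 value was 0.66 (edgeR unadjusted p = 0.107).

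Syce2, the partner of Syce1 in the central element and the most abundant of the group, had 41.8 and 35.6 CPM in the controls and 45.7 and 42.7 CPM after knockdown, a smaller difference of 0.19 ± 0.17 on the log2 scale (unadjusted p = 0.282). Sycp3, a lateral element protein, had 2.01 and 3.02 CPM in the controls and 2.19 and 5.48 CPM after knockdown, with knockdown 2 alone above the controls (log2 fold change 0.60 ± 0.48, and -0.19 without knockdown 2). Sycp3 shares 660 exon bases with Chpt1 on the opposite strand in the GENCODE annotation, and the strand setting of the counting is not stated. Corrected for transcript length and GC, the median of the 4 was 0.36, and their transcripts are short, with a median of 1573 bases against 3380 over all genes tested.

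Genes of the meiotic cohesin, the chromosome axis and recombination gave no common direction: 2 of 7 tested lay above 0, with a median of -0.17. Tex11, an X-linked factor of meiotic crossover formation, stood apart from the others. It had 7.67 and 7.73 CPM in the controls and 13.6 and 14.1 CPM after knockdown, with close replicates, and a log2 fold change of 0.85 ± 0.25 (unadjusted p = 0.00442, edgeR adjusted p = 0.204). Its fold change stayed between 0.83 and 0.87 when any 1 library was left out. Corrected for transcript length and GC it was 0.69 (edgeR adjusted p = 0.275).

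The meiotic cohesin subunits showed no such gap. Smc1b had 8.64 and 8.0 CPM in the controls and 7.21 and 6.74 CPM after knockdown, slightly lower in both knockdown libraries (-0.25 ± 0.28, unadjusted p = 0.374). Stag3 had 42.8 and 27.5 CPM in the controls and 34.1 and 30.9 CPM after knockdown (-0.11 ± 0.22), and Rec8, the cleavable ring subunit, had 7.12 and 5.56 CPM in the controls and 4.70 and 6.55 CPM after knockdown (-0.17 ± 0.32). In Stag3 and Rec8 the groups overlapped.

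Hormad1, an axis protein that recruits the recombination machinery, had 5.90 and 2.65 CPM in the controls and 3.63 and 3.86 CPM after knockdown, and Dmc1, the meiosis-specific strand exchange recombinase, had 4.38 and 1.96 CPM in the controls and 2.51 and 2.51 CPM after knockdown. In both, control 1 was the highest of the 4 libraries and control 2 the lowest, so the knockdown values lay inside the range of the controls. Tex15, a large protein needed for meiotic repair and for piRNA-directed silencing, was low and uneven, at 1.64 and 0.424 CPM in the controls and 0.985 and 1.72 CPM after knockdown.

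In the piRNA pathway 8 of 11 members lay above 0, with a median of 0.11, and its 3 most abundant members had fold changes near 0. Piwil2, a PIWI protein that binds piRNAs, had 56.1 and 37.9 CPM in the controls and 54.8 and 49.7 CPM after knockdown (0.15 ± 0.20). Mov10l1, the helicase that feeds precursor transcripts into the pathway, had 38.6 and 28.2 CPM in the controls and 35.5 and 36.6 CPM after knockdown (0.11 ± 0.19), and Mael, a factor of piRNA processing granules, had 17.2 and 14.2 CPM in the controls and 16.6 and 17.2 CPM after knockdown (0.11 ± 0.22). Control 2 was the lowest library for all 3 genes. Piwil4, the nuclear PIWI protein that directs DNA methylation, was at 2.13 and 1.69 CPM in the controls and 1.70 and 2.46 CPM after knockdown, and Asz1, a mitochondrial anchor of the pathway, at 0.913 and 1.17 CPM in the controls and 1.16 and 1.02 CPM after knockdown.

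The Tudor-domain genes, whose products dock on methylated arginines of PIWI proteins, lay on both sides of 0. Tdrd12 had 5.23 and 3.60 CPM in the controls and 6.81 and 7.85 CPM after knockdown, with separate groups and a log2 fold change of 0.73 ± 0.32 (unadjusted p = 0.0414, edgeR adjusted p = 0.404, and 0.48 without control 2). Tdrd7 was the 1 member at an unadjusted p under 0.05 by edgeR on the lower side. It had 2.13 and 1.38 CPM in the controls and 0.717 and 0.557 CPM after knockdown, from raw counts of 35 and 26, then 16 and 12, a log2 fold change of -1.45 ± 0.62 (unadjusted p = 0.0369, edgeR adjusted p = 0.387).

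Tdrkh, a mitochondrial Tudor protein that takes part in piRNA trimming, had 2.07 and 2.54 CPM in the controls and 2.60 and 3.67 CPM after knockdown (0.44 ± 0.42). It shares 2255 exon bases with Oaz3 on the opposite strand, so its reads cannot be set apart from those of Oaz3 without strand. Tdrd1 (0.25 ± 0.48), Tdrd5 (-0.34 ± 0.44) and Tdrd9 (-0.46 ± 0.75) did not pass at an unadjusted p under 0.05, and Tdrd9 had only 10 to 17 reads in a library.

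The last 4 genes encode testis surface, carrier and cytoskeletal proteins. Tex101, a GPI-anchored surface protein of germ cells, had the largest fold change of all members on the higher side, from a low level: 1.03 and 0.953 CPM in the controls and 2.69 and 2.32 CPM after knockdown (raw counts of 17 and 18, then 60 and 50). Its log2 fold change was 1.33 ± 0.51 (unadjusted p = 0.0225, edgeR adjusted p = 0.345), and it stayed between 1.21 and 1.44 when any 1 library was left out. Its partner on the surface, the dipeptidase gene Dpep3, had 2.19 and 1.59 CPM in the controls and 1.97 and 2.28 CPM after knockdown (0.17 ± 0.48).

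Tuba3a, an alpha-tubulin gene of the testis, had 58.5 and 64.5 CPM in the controls and 77.5 and 69.6 CPM after knockdown (0.26 ± 0.15, unadjusted p = 0.118). It has a near-identical copy, Tuba3b, so its count rests on the reads that align to 1 place only. Slc25a31, the germ cell ADP/ATP carrier of mitochondria, had 5.23 and 7.04 CPM in the controls and 3.58 and 5.85 CPM after knockdown (-0.38 ± 0.35), with overlapping groups.

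Set beside the fold changes, the promoter motifs gave the following split. Of the 14 with an E-box promoter, 9 had a fold change above 0, with a median of 0.15 and a range from -0.46 to 0.95, and 2 had an unadjusted p under 0.05. Of the 17 tested members with promoters but no E-box, 10 were above 0, with a median of 0.12 and a range from -1.45 to 1.33, and 5 had an unadjusted p under 0.05. Of all genes tested, 49.8% had a fold change above 0. At an unadjusted p under 0.05 by edgeR, 6.18% of all genes were on the higher side and 5.43% on the lower. The difference between the members with and without an E-box was not tested.

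**Figure D5:**
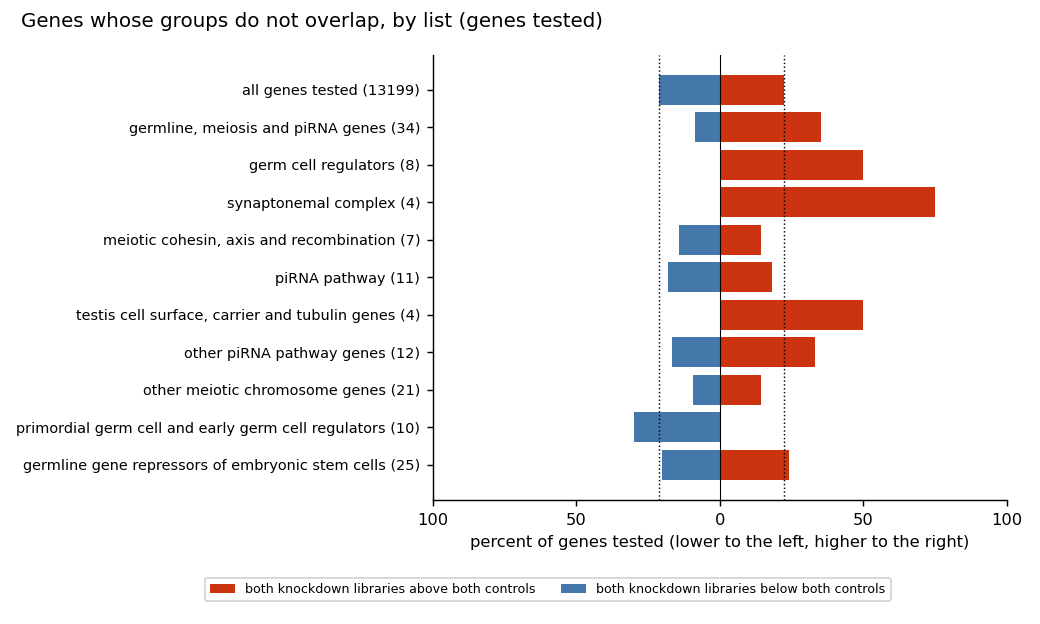
Percent of tested genes in which both knockdown libraries lay above both controls (red, to the right) or below both (blue, to the left), for all genes, for the 34 members, their 5 functional groups and 4 further lists, with the number of genes tested in brackets; dotted lines mark all genes. The members reach 35.3% on the higher side and 8.82% on the lower, against 22.3% and 21.3% of all genes.

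Other genes of the same pathways gave a mixed picture. Of 12 further piRNA pathway genes tested, 3 had an unadjusted p under 0.05 by edgeR on the higher side and 0 on the lower. That was 25.0% and 0%, against 6.18% and 5.43% of all genes. None was called by edgeR, DESeq2 or limma-voom, and the median log2 fold change was 0.09. Gtsf1, a zinc finger partner of PIWI proteins, had 2.37 and 2.38 CPM in the controls and 5.33 and 6.50 CPM after knockdown (1.31 ± 0.36, unadjusted p = 0.00278, edgeR adjusted p = 0.183). Fkbp6, a co-chaperone that takes part in piRNA loading, had 23.1 and 33.1 CPM in the controls and 40.5 and 54.8 CPM after knockdown (0.76 ± 0.22, edgeR adjusted p = 0.199). The third, Ddx39, is a helicase of general messenger RNA export (0.37 ± 0.14), and Rnf17, a Tudor-domain gene, lay higher in both knockdown libraries than in either control (0.45 ± 0.21, unadjusted p = 0.0543).

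Of 21 further meiotic chromosome genes tested, 1 had an unadjusted p under 0.05 by edgeR on each side. That was 4.76% each, against 6.18% of all genes on the higher side and 5.43% on the lower. None was called by the 3 tools, and the median was 0.03. The helicase gene Hfm1 had 1.16 and 0.741 CPM in the controls and 2.87 and 2.79 CPM after knockdown (1.58 ± 0.51, edgeR adjusted p = 0.247). Ccnb1ip1, a ligase of crossover sites, had 7.79 and 2.60 CPM in the controls and 2.28 and 2.04 CPM after knockdown, where control 1 alone was high (-1.25 ± 0.49, edgeR adjusted p = 0.351, and -0.26 without control 1). Spata22, a partner of single-stranded DNA binding proteins, had a log2 fold change of -1.65 ± 0.83, and -0.86 without control 1.

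Of 10 early germ cell regulators tested, 0 had an unadjusted p under 0.05 by edgeR on the higher side and 1 on the lower. That was 0% and 10.0%, against 6.18% and 5.43% of all genes. None was called by the 3 tools, and the median was -0.05. The lower gene was Prdm14, a regulator of both naive pluripotency and primordial germ cells, with 34.7 and 43.8 CPM in the controls and 23.6 and 29.4 CPM after knockdown (-0.57 ± 0.20, unadjusted p = 0.0132, edgeR adjusted p = 0.289). Ifitm3 (-0.30 ± 0.16), Tfap2c (0.40 ± 0.24) and Dmrt1 (0.38 ± 0.22) did not pass.

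The known repressors of germline genes were expressed in every library, at widely different levels. The 25 tested summed to between 5480 and 6140 CPM. The most abundant alone was at 1710 to 1990 CPM, and the least abundant was at 8.21 to 9.85 CPM. The median log2 fold change of the 25 was -0.03, and none was called by the 3 tools. At an unadjusted p under 0.05 by edgeR there was 1 on each side. That was 4.0% each, against 6.18% of all genes on the higher side and 5.43% on the lower. The DNA methyltransferase gene Dnmt3a had 228 and 203 CPM in the controls and 318 and 287 CPM after knockdown (0.49 ± 0.14, edgeR adjusted p = 0.212). Uhrf1, which guides maintenance methylation to replicated DNA, had 412 and 354 CPM in the controls and 332 and 275 CPM after knockdown (-0.34 ± 0.15, edgeR adjusted p = 0.428, and -0.20 without knockdown 2). Dnmt3l (0.44 ± 0.23) and the deacetylase gene Hdac1 (0.28 ± 0.14) did not pass, and Dnmt3l ran from 0.12 without knockdown 1 to 0.77 without control 1.

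Of the 4 genes for the removal of methylcytosine, Tet2 had 224 and 142 CPM in the controls and 119 and 101 CPM after knockdown (-0.73 ± 0.20, unadjusted p = 0.00373, edgeR adjusted p = 0.197). Tet2 was called by edgeR with no filter on low counts (adjusted p = 0.000901), where 158 of all genes were called lower. Without control 1 its fold change was -0.37 (edgeR adjusted p = 0.654), and without knockdown 1 it was -0.86 (0.0157). Tet1 had 334 and 174 CPM in the controls and 207 and 116 CPM after knockdown (-0.65 ± 0.37), and control 1 was its highest library. The value ran from -0.10 without control 1 to -1.14 without knockdown 1 (edgeR adjusted p = 0.974 and 0.000449). Tet3 (-0.10 ± 0.26) and Tdg (0.23 ± 0.25) lay near 0.

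The markers of other cell states stand beside these values as follows. The 6 primitive endoderm markers summed to 98.0 and 116 CPM in the controls and to 158 and 194 CPM after knockdown. Their median log2 fold change was 0.82, and 5 of 6 (83.3%) were separate on the higher side, beside 22.3% of all genes. None was called by edgeR, and DESeq2 called Pdgfra and Gata4. The members with the lowest p were Pdgfra (1.10 ± 0.23), Gata4 (0.94 ± 0.25), Gata6 (0.79 ± 0.23) and Sox17 (0.85 ± 0.27). Single libraries moved 3 of these by over 1.5 times: Pdgfra was 0.73 and Gata6 0.48 without knockdown 2, and Gata4 was 0.61 without control 1. Without knockdown 1 edgeR called Pdgfra, Gata4 and Gata6. Among pluripotency markers Nanog had -0.76 ± 0.14 (edgeR adjusted p = 0.0696). DESeq2 called Nanog (adjusted p = 0.000582), as did edgeR with upper-quartile factors (0.0432), library size only (0.045), the correction for length and GC (0.0378) and no filter (0.000403). Esrrb had -0.35 ± 0.15, whereas Klf4 had 0.27 ± 0.16 and Dppa5a 0.40 ± 0.16. The summed level of the 36 germline genes was 620 and 621 CPM in the controls and 643 and 763 CPM after knockdown, and Dazl, Tex19.1 and Tuba3a made up between 41.2% and 48.2% of it. The part of these other cell states in the values of the germline genes was not tested.

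Of the 2-cell-like markers, which label rare cells resembling the early embryo, 3 of 7 could be tested: Zscan4c (0.85 ± 0.52), Zscan4d (-0.02 ± 0.63) and Usp17lc (-0.01 ± 0.54), while Tcstv1, Tcstv3 and Gm4340 were at 0 in every library. Testis somatic markers were represented by Inhbb (-0.19 ± 0.15), a gene that stem cells also express, and by Dhh (-0.38 ± 0.63) at about 1 CPM.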

How the data were processed

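The authors deposited raw read counts, 1 whole number per gene symbol and library, with no scaling. Per the submitters' processing notes, TopHat, HTSeq, SAMtools and bedtools were run on build mm9; their versions, the annotation and the strand option are not stated. The labels' protocols give poly(A)-selected dUTP libraries and either of 2 RNA kits. Closing tallies that name no gene were left out. Reads aligned to several places were between 26.1% and 32.8% of tallied reads, which lowers the counts of near-identical genes.

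The main test was the quasi-likelihood test of edgeR 4.0.16 (R 4.3.3; filterByExpr with a minimum count of 10, TMM, robust estimation, group as the only term, two-sided) on 13199 genes, with Benjamini-Hochberg adjustment over them all and a threshold of 0.05. Each SE is the size of the log2 fold change divided by the root of its F statistic. Groups came from the sample titles. Replicates differed by more than counting error (chi-square per degree of freedom of 25.36 in controls and 20.54 after knockdown). How the cultures were separated is not stated, so p-values reflect only the spread among these 4 libraries. The code was tested on simulated data. Alternatives were DESeq2 1.42.0, limma-voom (limma 3.58.1), other scalings and filters, leaving out Rn45s, a replicate block, a correction for length and GC, promoter windows without the bases after the start, and left-out libraries. GENCODE M21 gave transcript lengths (98.5% of symbols matched).

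The members and lists were chosen with earlier results of these data known. All members are named, and of each further list up to 4 genes with the lowest unadjusted p, besides Cyrano and Rn45s. A gene that this rule names is not reported here. Markers at 0 and the genes with an E-box were named after their values were seen.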

Additional observations from a re-analysis of the deposited data

How the results depend on the processing

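Cyrano fell by 2.48 on the log2 scale (edgeR adjusted p = 0.00702) and was below 0 in all 16 alternatives. It missed the threshold by limma-voom (-2.42, adjusted p = 0.0512) and when either control was left out, over which the value ran from -2.79 to -2.08. Over all genes edgeR called 5 higher and 6 lower. RLE scaling gave 2 and 4, as did the filter on CPM. Upper-quartile scaling gave 10 and 16, library size alone 32 and 18, no filter 174 and 158, and DESeq2 71 and 62. Limma-voom gave 1 and 2, edgeR without robust estimation 1 and 3, and the correction for length and GC 3 and 4. With 1 library left out the counts ran from 0 to 60 higher and from 0 to 131 lower. The cause was not tested.

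The number of members called higher, 0, was 1 with no filter and from 0 to 1 with a library left out (Taf7l in each). The number called lower was 0 in all 16 alternatives. Members with separate groups, 12 higher and 3 lower, numbered from 13 to 22 higher and from 3 to 11 lower with a library left out, where 1 group then has a single library. That was 38.2% to 62.9% of tested members higher, beside 34.3% to 39.0% of all genes, and 8.57% to 31.4% lower, beside 33.6% to 37.4%. The members' median, 0.16, ran from 0.02 to 0.30.

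The groups share replicate numbers 1 and 2, but nothing in the labels ties equal numbers to a culture or day, so the numbers were not taken to pair samples. The replicate difference in the controls correlated with that after knockdown at 0.244 across 13199 genes, which are not independent. That value does not settle whether equal numbers share a culture or day. With the replicate block edgeR called 504 genes higher and 451 lower, with 4 members higher (Taf7l, Tex11, Syce1 and Sohlh2). With the replicate block and the correction for length and GC it called 333 and 254, with 2 members higher (Taf7l and Syce1).

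Of 34 members, 16 kept their sign in every alternative that tested them (16, or 15 for Brdt and Tdrd9, which the CPM filter removed) and 18 did not, 14 of these only with a library left out. With 1 library left out, log2 fold changes ran from -0.32 to 0.12 for Dazl, from -0.31 to 0.14 for Ddx4, from -0.80 to 0.81 for Stra8, from -0.03 to 0.47 for Tex19.1, from -0.19 to 1.11 for Sycp3, from -0.42 to 0.04 for Rec8, from -0.40 to 0.24 for Stag3 and from -0.66 to 0.50 for Hormad1. They ran from -0.28 to 1.66 for Tex15, from -0.80 to 0.35 for Dmc1, from -0.02 to 0.25 for Mael, from -0.22 to 0.83 for Tdrd1, from -0.64 to 0.02 for Tdrd5, from -0.10 to 0.46 for Piwil2, from -0.16 to 0.36 for Piwil4 and from -0.10 to 0.36 for Mov10l1. They ran from -0.09 to 0.26 for Asz1, from -0.05 to 0.42 for Dpep3, from -0.24 to 0.05 for Tet3, from -0.07 to 0.30 for Fbln1, from -0.55 to 0.69 for Thy1, from -1.31 to 0.65 for Zscan4d and from -0.47 to 0.33 for Usp17lc. Under the library size only setting the turned values were 0.02 for Stra8, 0.02 for Zscan4d and 0.05 for Usp17lc. Under the replicate block with length and GC offset setting the turned values were 0.00 for Stag3, -0.05 for Mael, -0.23 for Asz1 and 0.17 for Tet3. Under the length and GC offset setting the turned values were -0.06 for Mael, -0.24 for Asz1 and 0.18 for Tet3. Tet3, Fbln1, Thy1, Zscan4d and Usp17lc belong to the further lists. Each value with a turned sign had an edgeR adjusted p above the threshold.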
